A study of Mus musculus with 21 samples.

Results

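The insulin-like growth factor (IGF) axis was followed here through the histone mark H3K36me3 in 10 genes: the ligands Igf1 and Igf2, the receptors Igf1r and Igf2r, the binding proteins Igfbp2, Igfbp3, Igfbp4 and Igfbp5, and the mRNA-binding proteins Igf2bp2 and Igf2bp3. The genes were taken by name and all 10 were found among the 19300 protein-coding genes of at least 2 kb in the RefSeq annotation of mouse build GRCm38. For each gene the cover was measured, which is the percent of the gene body lying inside merged H3K36me3 peaks of a library. The study profiled C2C12, an established mouse myoblast line that forms myotubes in culture, at day 0, day 1 and day 5, with days 1 and 5 each in control medium or under methionine restriction. Wild-type (WT) cells gave 2 libraries in each of the 5 conditions and 2 Setd2 knockout (KO) lines gave 1 library each per condition, which makes 20 peak lists. Setd2 encodes the histone methyltransferase that places H3K36me3, and methionine is the precursor of the methyl donor it uses. How the KO lines were made, and whether WT replicates were separate cultures, was not stated in the labels, so p-values measure only the spread between these libraries, which may be technical.

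IGF1 and IGF2 are secreted growth factors that act mainly through the receptor tyrosine kinase IGF1R and, in muscle cells, are known for driving both proliferation and differentiation. IGF2R, the cation-independent mannose 6-phosphate receptor, takes IGF2 up for degradation, and the secreted IGFBP proteins bind the ligands outside the cell and hold or release them. H3K36me3 is laid down over transcribed gene bodies behind elongating RNA polymerase, usually rising toward the 3′ end, and is not a direct measure of RNA.

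The WT lists held 63423 to 87398 peaks covering 110 to 183 Mb, the KO line 1 lists 791 to 64530 peaks and the KO line 2 lists 127 to 13880 peaks. Restricted WT libraries covered less of the genome than control ones, at 110 and 128 Mb against 140 and 150 Mb on day 1, and 131 and 134 Mb against 171 and 183 Mb on day 5. Sequencing depth was unknown, because peak lists hold no read counts. Myoblast genes fitted the label, with cover of at least 50% on 4 of 5 listed markers at day 0 (Des, Vcam1, Myod1 and Cdh15). On control days 1 and 5 it was 3 of them, and on both restricted days 1, Cdh15, with Myod1 and Myf5 listed at 0. Of 7 differentiation markers, all were listed at 0 on day 0 and 6 had at least 50% cover on control day 5, against 1, Myh3, on restricted day 5. Markers of endothelium, fat and liver were listed at 0 in every WT condition, epithelial markers reached at most 0.219%, and of the 3 blood markers Cd68 alone was covered on day 0 and in control medium, at 96.1% to 100%. Setd2 itself had 45.6% to 82.8% cover in WT libraries, 0 to 24.0% in KO line 1 and 0 in KO line 2, which does not check the deletion.

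Cover differed widely within the axis. Igfbp2, Igfbp5 and Igf2r each reached at least 50% cover in some WT libraries, Igf1r, Igf2bp2 and Igf2bp3 were covered in all 10 WT libraries but never beyond 23.5%, and Igfbp3 had a peak in 1 WT library. Igf1, Igf2 and Igfbp4 were listed at 0 in all 10 WT libraries. WT libraries of day 0 and control medium had 2 or 3 of the 10 genes at 50% cover or more, and every restricted WT library had 0. Over all 19300 genes, 4263 to 5460 reached 50% in the former and 2416 to 3377 in the latter. A mean cover of at least 5% over the WT libraries was required for testing, and 5 genes passed it (Igf1r, Igf2r, Igfbp2, Igfbp5 and Igf2bp2), as did 9512 of the 19300 genes.

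**Figure D1:**
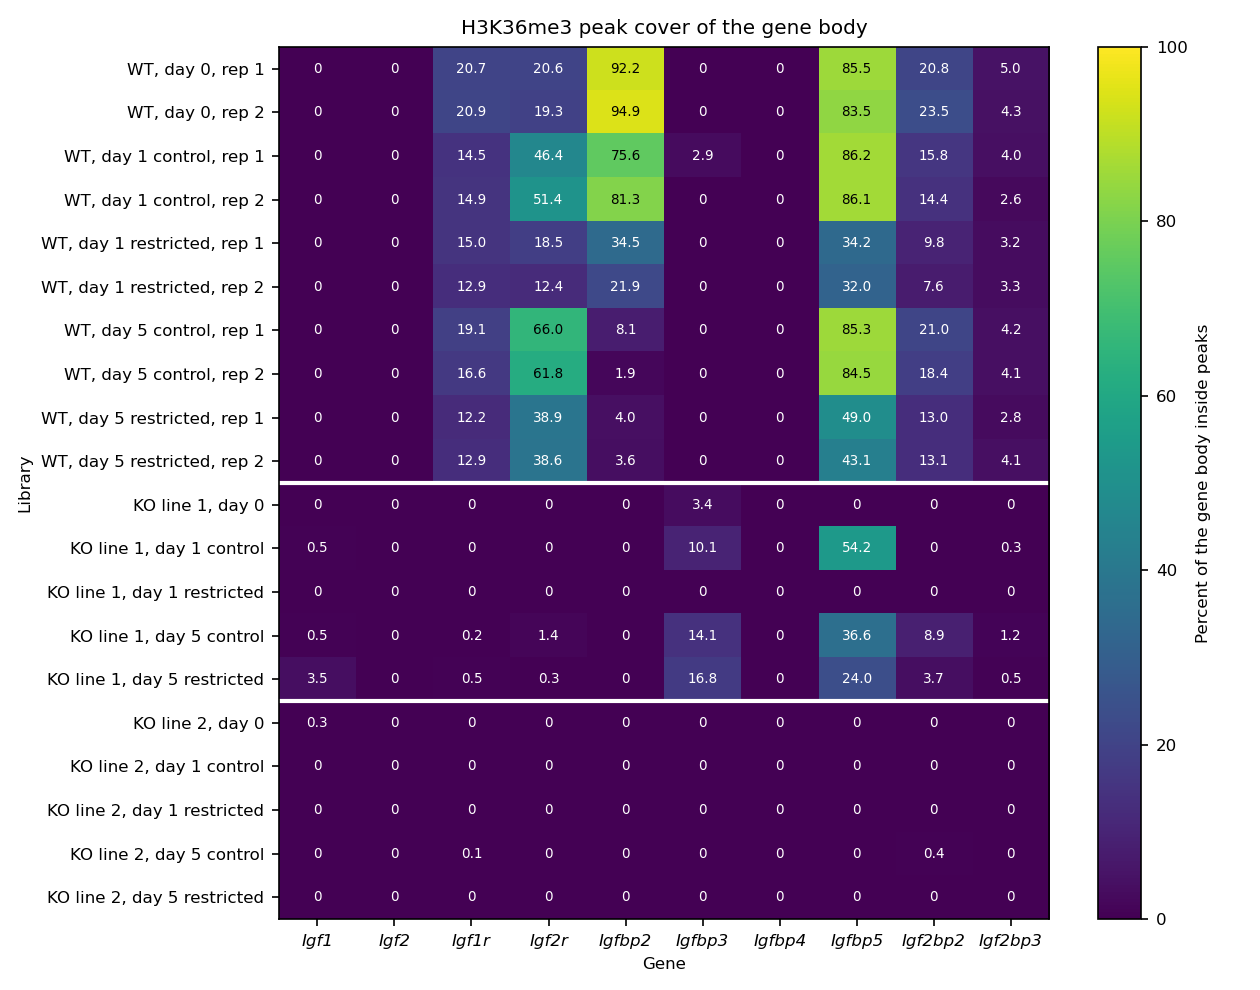
H3K36me3 cover of the 10 genes (columns) in all 20 libraries (rows), as percent of the gene body inside merged peaks, printed in each cell and shown by colour from 0 to 100. Igfbp2 falls from 92.2% and 94.9% at day 0 to 8.09% and 1.94% on control day 5, Igfbp5 is under 50% among WT libraries only in the 4 restricted ones, and white lines set off the KO libraries, most of whose cells hold 0.

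Differences were tested in WT with limma across the 9512 genes, in a model of the 5 WT conditions with Benjamini-Hochberg adjustment, and a gene is said to have risen or fallen where its adjusted p was under 0.05. Under restriction on day 1, 3 of the 5 tested genes fell and 0 rose, while 36% of all tested genes fell and 2.38% rose. Under restriction on day 5, 3 fell and 0 rose, beside 41.5% and 4.32% of all tested genes. Between day 0 and day 1 in control medium 1 rose and 0 fell (0.967% and 5.65% of all genes). Between day 1 and day 5 1 rose and 1 fell (17.1% and 5.95%), as did 1 and 1 between day 0 and day 5 (12.2% and 15.6%). Against day 0, 1 rose and 4 fell by restricted day 5, where 4.05% of all genes rose and 43.5% fell. The restriction effect differed between day 5 and day 1 for 1 of the 5, with a higher value on day 5, beside 1.62% of all genes with a higher and 3.58% with a lower value. That gene, Igfbp2, had little control cover left to lose on day 5. The libraries of the groups compared did not overlap for 4 of the 5 genes under restriction on day 1 (70.5% of all tested genes) and on day 5 (79.3%), and for 5, 5 and 3 of them from day 0 to day 1 (55.0%), day 1 to day 5 (66.8%) and day 0 to day 5 (61.9%), and for 5 from day 0 to restricted day 5 (74.9%). These comparisons share libraries, so their values for a gene are not independent of each other.

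The median gene moved as well, by -7.99 points under restriction on day 1 and by -9.15 points on day 5. The split of calls therefore depends on scaling: on day 1, 226 genes rose and 3422 fell as measured, against 3518 and 1246 when each library was centred on its own median, and 845 and 1978 with lists cut to equal covered length. On day 5 the same counts were 411 and 3944, 3763 and 1395, and 1425 and 2073. Restricted day 5 against day 0 gave 385 and 4138, 4282 and 1402, and 1152 and 2251, around a median of -9.84 points as measured. In control medium, day 0 to day 1 gave 92 and 537, 225 and 108, and 120 and 119. Day 1 to day 5 gave 1628 and 566, 991 and 1176, and 632 and 881, and day 0 to day 5 gave 1157 and 1484, 1614 and 1299, and 843 and 1281. The restriction effect on day 5 minus that on day 1 gave 154 and 341, 242 and 353, and 344 and 273. Restricted medium and a smaller covered length went together in these libraries. With centring the median difference changed sign, to 7.20 points on day 1, 7.53 on day 5 and 9.22 from day 0 to restricted day 5. Rises counted under centring are to be read beside these medians. Equal covered length gave medians of -4.36, -1.88 and -3.92 points.

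**Figure D2:**
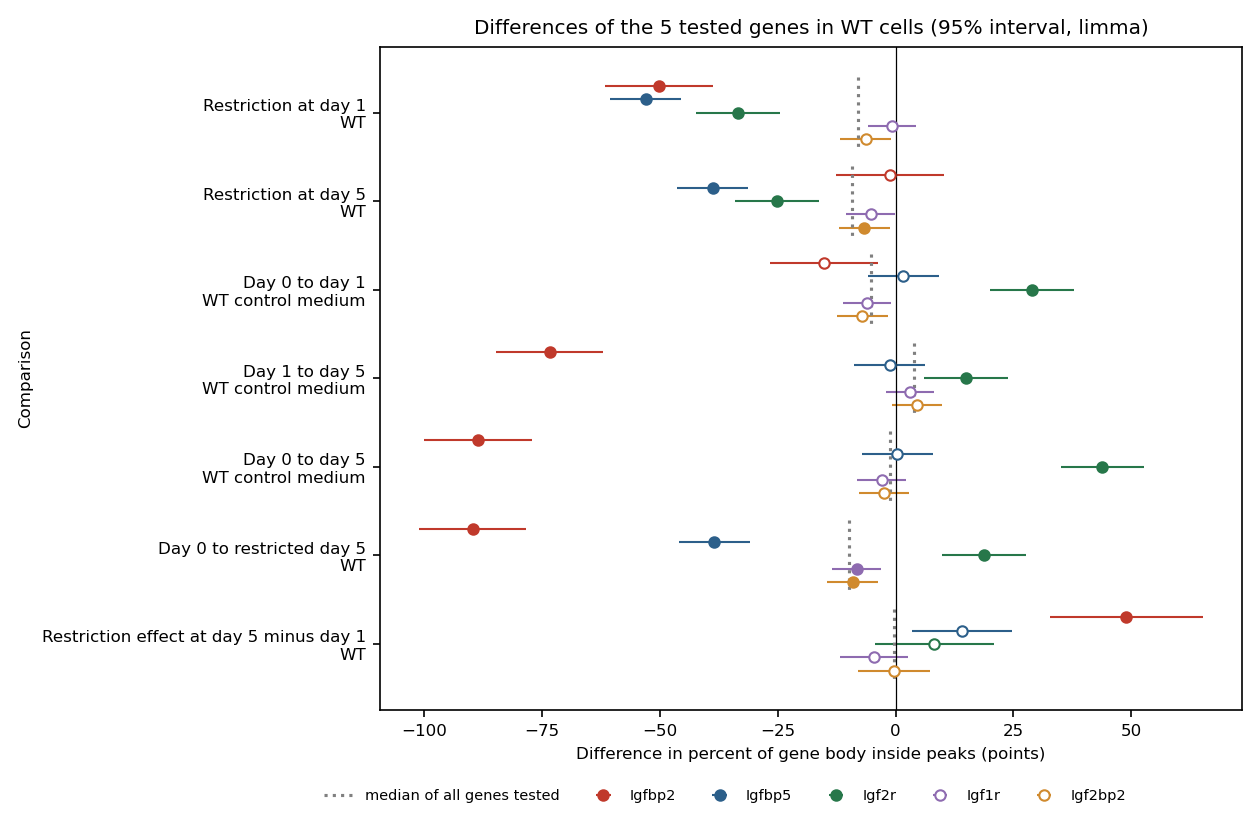
Differences in cover (percentage points, x axis) for the 5 tested genes in 7 WT comparisons, with 95% limma intervals. Filled points have an adjusted p under 0.05, open points do not, and dotted lines mark the median of all tested genes. The points farthest left belong to Igfbp2, at -88.5 and -89.7 points from day 0 to control and restricted day 5, and Igf2r lies to the right of 0 in every comparison that starts from day 0.

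Of the ligands, Igf2 (chr7:142650768-142666816, minus strand, 16 kb) was listed at 0 in all 20 libraries. Mir483 and the antisense Igf2os overlap 44.9% of its body. Igf1 (chr10:87858265-87937047, plus strand, 78.8 kb) was listed at 0 in all 10 WT libraries and carried small peaks in 4 KO libraries. Those were 0.472%, 0.496% and 3.52% of the body in KO line 1 at control day 1, control day 5 and restricted day 5, and 0.333% in KO line 2 at day 0. The ligand genes thus gave no WT signal to compare between days or media at the authors' threshold.

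H19, the imprinted noncoding neighbour of Igf2 (chr7:142575530-142578146, 2.62 kb), was covered in WT libraries where Igf2 was not. Its cover was 41.5% and 70.3% at day 0, 90.1% and 92.4% at control day 1, and 76.8% and 88.7% at control day 5. It was listed at 0 in all 4 restricted WT libraries and in all 10 KO libraries, so restricted and control values did not overlap on either day. As a noncoding gene it was not part of the tested table and has no p-value here.

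Igf1r, the signalling receptor (chr7:67952257-68233668, plus strand, 281 kb), had a narrow range of cover. It measured 20.7% and 20.9% at day 0, 14.5% and 14.9% at control day 1, 15% and 12.9% at restricted day 1, 19.1% and 16.6% at control day 5, and 12.2% and 12.9% at restricted day 5. Day 0 was highest and restricted day 5 lowest, while the media overlapped on day 1. Igf1r fell from day 0 to restricted day 5 by 8.25 points (SE 2.23, limma adjusted p = 0.0156). With libraries centred on their medians it rose by 10.8 points (adjusted p = 0.00962), beside 9.22 points for the median tested gene. Restriction at day 5 gave a difference of -5.28 points (95% interval -10.4 to -0.171, adjusted p = 0.0862), and at day 1 of -0.706 points (-5.81 to 4.40, adjusted p = 0.834). With centring these became 11.4 points (adjusted p = 0.00859) and 14.5 points (adjusted p = 0.00335), beside 7.53 and 7.20 points for the median tested gene. The call from day 0 to restricted day 5 was lost without either restricted day 5 library, at adjusted p = 0.0889 without replicate 1 and 0.0671 without replicate 2, and lists of equal covered length gave 1.22 points (adjusted p = 0.779).

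Igf2r, the clearance receptor (chr17:12682406-12769706, minus strand, 87.3 kb), was the one tested gene of the axis whose cover rose with time in control medium. It measured 20.6% and 19.3% at day 0, 46.4% and 51.4% at control day 1, and 66.0% and 61.8% at control day 5. Under restriction it measured 18.5% and 12.4% at day 1 and 38.9% and 38.6% at day 5. As measured, the 5 conditions ran, from low to high, restricted day 1, day 0, restricted day 5, control day 1 and control day 5, and no neighbours in this order had overlapping libraries. Restricted day 1, at 15.5% ± 4.29 (SD, n = 2), and day 0 lay closest and were not tested against each other.

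Igf2r rose by 28.9 points from day 0 to day 1 (SE 3.88, limma adjusted p = 0.00655) and by 43.9 points from day 0 to day 5 (adjusted p = 6.48e-05). Between day 1 and day 5 it rose by 15 points (95% interval 6.13 to 23.9, adjusted p = 0.0250). Under restriction it fell by 33.4 points at day 1 (-42.3 to -24.5, adjusted p = 3.54e-04) and by 25.2 points at day 5 (-34.1 to -16.3, adjusted p = 0.00111). Even so it stood 18.8 points higher on restricted day 5 than at day 0 (adjusted p = 0.00446). The restriction effects of the 2 days differed by 8.26 points (-4.31 to 20.8, adjusted p = 0.460).

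Several of these calls depended on scaling or on single libraries. The fall under restriction on day 5 shrank to -1.76 points with lists of equal covered length (adjusted p = 0.746) and to -8.49 points with centring (adjusted p = 0.0542), whereas that on day 1 was -11.6 and -18.2 points (adjusted p = 0.0449 and 0.00238), and -13.8 points (0.0232) with peaks of a −log10 q of at least 3. The rise from day 0 to restricted day 5 was 29.9 points with equal covered length and 37.8 points with centring, against 22.1 and 37.4 points from day 0 to control day 1. The order of conditions thus depended on scaling: under both, restricted day 1 moved above day 0. Restricted day 5 moved above control day 1 with equal covered length and was nearly level with it under centring. Restricted day 5 and control day 1 were not tested against each other. The rise from day 1 to day 5 lost its call without any one of the 4 libraries compared: at 12.5 points (adjusted p = 0.157) without day 1 replicate 1, 17.5 points (0.0528) without day 1 replicate 2, 12.9 points (0.139) without day 5 replicate 1, and 17.1 points (0.0509) without day 5 replicate 2. It was also lost with equal covered length (9.59 points, adjusted p = 0.125), with centring (8.92 points, 0.0838) and with only the groups compared in the fit (0.0580), but was 29.9 points (0.00158) with peaks of a −log10 q no lower than 3. The rise from day 0 to day 1 had an adjusted p of 0.0510 without control day 1 replicate 2, of 0.135 with only the groups compared, and of 0.0640, at 13.2 points, with peaks of a −log10 q of at least 3.

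The antisense noncoding RNA Airn, known for silencing paternal Igf2r in cis in many tissues, starts inside Igf2r and shares 28.4 kb, or 32.5%, of its body. Peaks carry no strand, so cover in the shared stretch cannot be assigned to either gene. In that stretch, at the 5′ end of Igf2r, cover was 1.17% and 0 at day 0, 26.1% and 34.8% at control day 1, and 51.5% and 45.2% at control day 5, but 5.94% and 0 at restricted day 1 and 7.61% and 6.67% at restricted day 5. In the rest of Igf2r it was 30.0% and 28.7% at day 0, 56.2% and 59.4% at control day 1, and 73.0% and 69.8% at control day 5, with 24.6% and 18.4% at restricted day 1 and 54.0% in both restricted day 5 libraries. Both stretches thus ordered control above restricted on each day, without overlap. The part of Airn beyond Igf2r stayed between 0 and 11.2% in all WT libraries, and was highest at control day 5, at 11.2% and 9.57%.

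**Figure D3:**
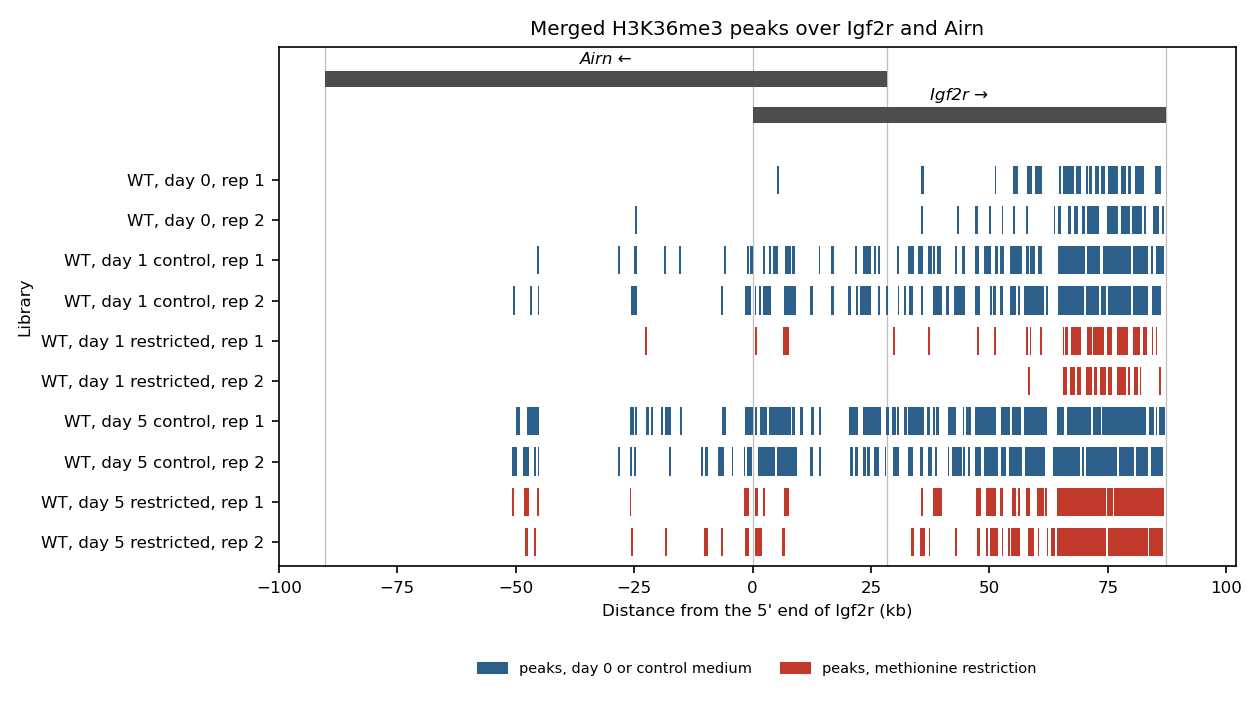
Merged H3K36me3 peaks (bars) of the 10 WT libraries over Igf2r and Airn, by distance in kb from the 5′ end of Igf2r, which is drawn left to right. Every library has peaks in the 3′ part of Igf2r, and they extend over the first 28.4 kb, shared with Airn, mainly in control medium on days 1 and 5.

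The Igf2r promoter is shown because it was the one promoter window of a tested gene in the axis with a large peak overlap. The window holds 250 bases before and 50 after the annotated start (chr17:12769657-12769956, minus strand, RefSeq GRCm38.p6), and was covered by 92.3% and 0.333% at control day 1 and by 100% and 59.3% at control day 5, with 0 in the other 16 libraries. The window of the Airn start, inside Igf2r, was covered by 99.0% in control day 1 replicate 2 and by 100% in control day 5 replicate 1, and by 0 in all others. Capitals mark GGGCGG, the GC box letters, found 3 times on the strand searched or its complement. It occurs in 35.7% of 32841 promoters of the same length, and CAGCTG, an E-box, occurs in 16.3% of them and in none of the windows printed here.
Igf2r promoter: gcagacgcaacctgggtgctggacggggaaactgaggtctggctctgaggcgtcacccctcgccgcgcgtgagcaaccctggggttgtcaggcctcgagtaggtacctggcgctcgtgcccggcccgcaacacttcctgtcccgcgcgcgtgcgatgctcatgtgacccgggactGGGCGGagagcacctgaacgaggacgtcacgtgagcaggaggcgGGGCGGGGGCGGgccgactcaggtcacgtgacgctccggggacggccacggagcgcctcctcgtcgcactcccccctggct

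Igfbp2 and Igfbp5 lie next to each other on chromosome 1, 5.59 kb apart and pointing toward each other, and behaved differently. Igfbp2 (chr1:72824480-72852474, plus strand, 28.0 kb) encodes a binding protein with a preference for IGF2. Igfbp5 (chr1:72858065-72874865, minus strand, 16.8 kb) encodes a binding protein that differentiating myoblasts are known to secrete. Their promoters are printed because peaks covered most of either body in some libraries and yet left these windows almost free. Igfbp5 (chr1:72874816-72875115) was at 0 in all 20 libraries and so was the first Igfbp2 window (chr1:72824230-72824529). A second annotated Igfbp2 start was partly covered in 1 WT day 0 library. The first Igfbp2 window holds GGGCGG 3 times (capitals) and the Igfbp5 window not at all.
Igfbp2 promoter: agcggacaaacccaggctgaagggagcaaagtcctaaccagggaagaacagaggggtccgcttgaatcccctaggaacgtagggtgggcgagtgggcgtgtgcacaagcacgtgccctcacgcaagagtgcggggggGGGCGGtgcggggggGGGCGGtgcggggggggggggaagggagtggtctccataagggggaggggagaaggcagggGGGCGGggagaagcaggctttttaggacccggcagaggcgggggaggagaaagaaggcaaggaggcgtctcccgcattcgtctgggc
Igfbp5 promoter: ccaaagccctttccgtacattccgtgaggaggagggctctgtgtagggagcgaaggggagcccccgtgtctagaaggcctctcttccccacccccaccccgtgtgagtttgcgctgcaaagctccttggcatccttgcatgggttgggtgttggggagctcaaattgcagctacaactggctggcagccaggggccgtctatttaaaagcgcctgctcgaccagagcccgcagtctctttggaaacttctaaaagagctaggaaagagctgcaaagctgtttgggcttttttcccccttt

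Igfbp2 lost nearly all of its cover over time. It measured 92.2% and 94.9% at day 0, 75.6% and 81.3% at control day 1, and 8.09% and 1.94% at control day 5. Restricted cells were at 34.5% and 21.9% on day 1 and at 4.01% and 3.60% on day 5. Control and restricted libraries were far apart on day 1 and overlapped on day 5.

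Igfbp2 fell by 73.4 points from control day 1 to day 5 (SE 4.99, limma adjusted p = 2.60e-05) and by 88.5 points from day 0 to day 5 (adjusted p = 6.11e-06). The difference from day 0 to day 1 was -15.1 points (95% interval -26.6 to -3.69, adjusted p = 0.108). Under restriction it fell by 50.2 points on day 1 (-61.6 to -38.8, adjusted p = 1.73e-04). On day 5 the difference was -1.21 points (-12.6 to 10.2, adjusted p = 0.870), and the effects of the days differed by 49.0 points (32.8 to 65.2, adjusted p = 0.00633). With centring, the day 5 difference became 15.5 points (adjusted p = 0.0110), beside 7.53 points for the median tested gene. Control cover on day 5 was only 5.01% ± 4.35 (SD, n = 2). A fall on day 5 could not exceed that cover, so a large difference between the effects was set in advance. On restricted day 5 Igfbp2 had, against day 0, dropped by 89.7 points (adjusted p = 9.20e-06).

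The fall on restricted day 1 was uneven along Igfbp2. Its last 5 kb kept 89.4% and 82.8% cover there, against 91.8% and 100% at control day 1 and 100% in both day 0 libraries. So close to full cover, a weaker mark need not show. By control day 5 the same 5 kb held 0 and 10.8%. At day 0 the body was covered from 0.897 to 1.52 kb after its 5′ end onward in 2 or 3 peaks. The strongest peak had an authors' fold enrichment of 5.30 and 5.61, above 99.2% and 98.4% of the peaks in its own list.

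Igfbp5 was covered over most of its body in day 0 and control libraries. It measured 85.5% and 83.5% at day 0, 86.2% and 86.1% at control day 1, and 85.3% and 84.5% at control day 5, so that the groups lay within a few points. Cover was near its ceiling there, with the 3′ part at 100% in all 6 libraries, and does not show that the mark's strength stayed the same. The highest authors' fold enrichment in the gene was 4.73 and 6.46 at day 0, 6.45 and 6.23 at control day 1, and 5.41 and 5.05 at control day 5. Restricted libraries were at 34.2% and 32.0% on day 1 and at 49.0% and 43.1% on day 5, all below every control library.

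Under restriction Igfbp5 fell by 53.0 points on day 1 (SE 3.29, limma adjusted p = 3.26e-05) and by 38.8 points on day 5 (95% interval -46.4 to -31.3, adjusted p = 5.57e-05). Lists of equal covered length gave -54.3 and -43.4 points, and centring -37.9 and -22.2 points, all with an adjusted p under 0.05. Time in control medium gave 1.64 points from day 0 to day 1 (-5.88 to 9.16, adjusted p = 0.799) and 0.384 points from day 0 to day 5 (-7.14 to 7.90, adjusted p = 0.953). The effect on day 5 minus that on day 1 was 14.2 points (3.57 to 24.8, adjusted p = 0.126), and 20.4 points (0.0441) with peaks within 1 kb joined. Between day 0 and restricted day 5 it fell by 38.5 points (adjusted p = 4.69e-05), or by 19.4 points with centring (0.00144). In a bulk sample, fewer cells with the mark and less mark per cell cannot be told apart.

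The cover lost from Igfbp5 under restriction lay mostly toward its start. Its 3′ part was at the ceiling in control medium, where a weaker mark need not show. The first 50% of the body was covered by 67.0% to 72.5% in the 6 day 0 and control libraries and by 4.32% to 10.2% in the 4 restricted ones. The last 50% went from 100% in all 6 to 59.8% in both restricted day 1 libraries and to 87.8% and 80.8% at restricted day 5. In day 0 and control libraries 1 or 2 peaks ran from 2.31 to 2.60 kb after the 5′ end through the 3′ end into the gap toward Igfbp2. The gap was covered by 46.1% and 54.0% at day 0, 37.0% and 43.2% at control day 1, 12.9% and 9.80% at control day 5, 0 and 8.59% at restricted day 1, and 0 in both libraries of restricted day 5. In Igf2r, too, the first 50% went from 53.1% and 42.8% at control day 5 to 10.4% and 9.88% at restricted day 5. Its last 50% went from 78.9% and 80.9% to 67.5% and 67.3%. The loss by part of the body was not measured over all genes.

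**Figure D4:**
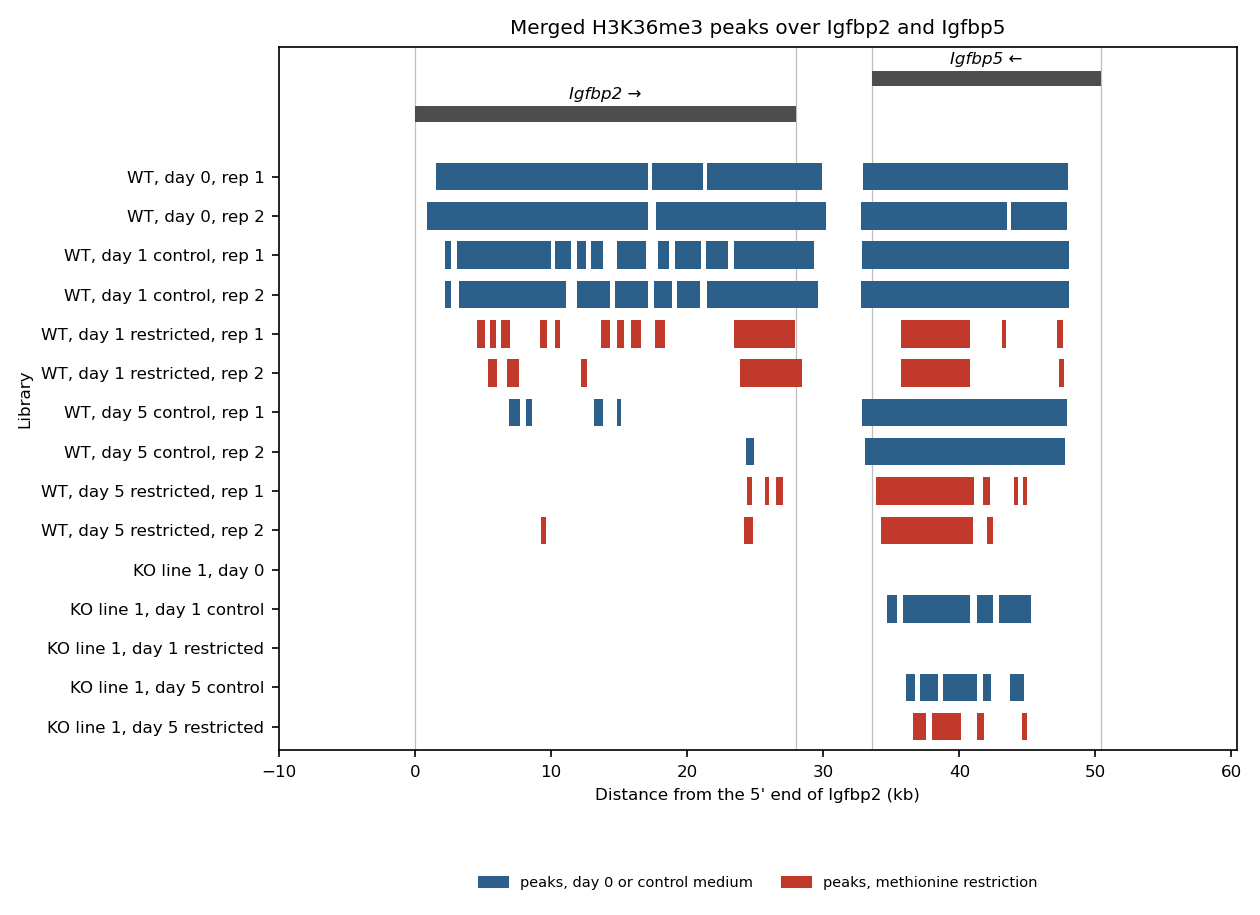
Merged H3K36me3 peaks (bars) over Igfbp2 and Igfbp5 by distance in kb from the 5′ end of Igfbp2, for the 10 WT libraries and KO line 1 (KO line 2 had no peak in either gene). By day 5 peaks over Igfbp2 are down to 1.94% to 8.09% of its body in both media, while Igfbp5 stays covered in control medium, and restricted libraries keep peaks near the facing 3′ ends.

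Igfbp3, which encodes the main IGF carrier of serum (chr11:7206086-7215498, minus strand, 9.41 kb), had 2.86% cover in control day 1 replicate 1 and 0 in the other 9 WT libraries. Igfbp4 (chr11:99040005-99052655, plus strand, 12.7 kb), encoding a binding protein cleaved by pappalysin, was listed at 0 in all 20 libraries. Neither passed the 5% filter.

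Igf2bp2 and Igf2bp3 encode RNA-binding proteins that take part in the handling of Igf2 and other mRNAs. Igf2bp2 (chr16:22059009-22163299, minus strand, 104 kb) measured 20.8% and 23.5% at day 0, 15.8% and 14.4% at control day 1, 9.84% and 7.61% at restricted day 1, 21.0% and 18.4% at control day 5, and 13% and 13.1% at restricted day 5. Restricted libraries lay below control ones on both days without overlap. Under restriction Igf2bp2 fell by 6.63 points on day 5 (limma adjusted p = 0.0472), a call that turned to 10 points higher (adjusted p = 0.0252) with centring and was lost without any one of the 8 WT libraries of days 1 and 5. Lists of equal covered length gave 7.30 points (adjusted p = 0.231) and a −log10 q no lower than 3 gave 1.63 points (0.595). The call was also lost with shared bases left out (0.0513), with only the groups compared (0.0562) and with limma's trend and robust settings off (0.0683). The day 1 difference was -6.36 points (95% interval -11.7 to -0.992, adjusted p = 0.0624), or 0.0473 at the same difference with no filter on low cover. It was 8.83 points (adjusted p = 0.0448) with centring, and -9.38 points (0.0122) with the stricter peaks. With centring the median tested gene stood at 7.20 points on day 1 and 7.53 points on day 5. For the day 5 call, leaving out replicate 1 and replicate 2 in turn gave an adjusted p of 0.0709 and 0.0723 for control day 1, 0.0557 and 0.0549 for restricted day 1, 0.190 and 0.0572 for control day 5, and 0.165 and 0.156 for restricted day 5. With centring Igf2bp2 rose by 9.97 points from day 0 to restricted day 5 (limma adjusted p = 0.0234), beside 9.22 points for the median tested gene. As measured it fell by 9.09 points between them (SE 2.35, limma adjusted p = 0.0127). That call was lost without restricted day 5 replicate 1 (0.0679) or replicate 2 (0.0636), with equal covered length (-2.45 points, 0.699) and with only the groups compared (0.0511). In control medium the stricter peaks alone gave calls, of -8.67 points from day 0 to day 1 (0.0429) and -13.1 points from day 0 to day 5 (0.00361).

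Igf2bp3 (chr6:49085218-49215469, minus strand, 130 kb) was covered by 2.56% to 5.03% in the 10 WT libraries. All of it lay in the 53.9 kb at its 3′ end that overlap Malsu1, a mitochondrial ribosome factor gene, and the rest of Igf2bp3 was listed at 0 in all libraries. The Malsu1 part outside Igf2bp3 had 17.5% to 62.8% cover in WT, so the cover counted for Igf2bp3 cannot be told apart from that of its neighbour.

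Most tested genes had more cover in the 3′ part of the body than in the 5′ part, and so did these 5. Averaged over the WT libraries, the first and last 50% of the body held 3.92% and 28.0% in Igf1r, 1.23% and 30.2% in Igf2bp2, 19% and 55.8% in Igf2r, 45.1% and 88.8% in Igfbp5, and 38.0% and 45.6% in Igfbp2. Over the 7710 tested genes with a known strand the medians were 24.9% and 63.2%, and 90.5% had more in the 3′ part. Among the 1856 of at least 50 kb the medians were 15.5% and 42.2%, and 83.7% had more in the 3′ part. The difference between the ends was larger in Igfbp5 than in 70.4% of the tested genes, in Igf2r than in 60.9%, in Igf2bp2 than in 49.0%, in Igf1r than in 40.8% and in Igfbp2 than in 16.1%. Igf2r also had cover in its 5′ part in control medium, at 28.0% and 36.1% on day 1 and 53.1% and 42.8% on day 5.

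**Figure D5:**
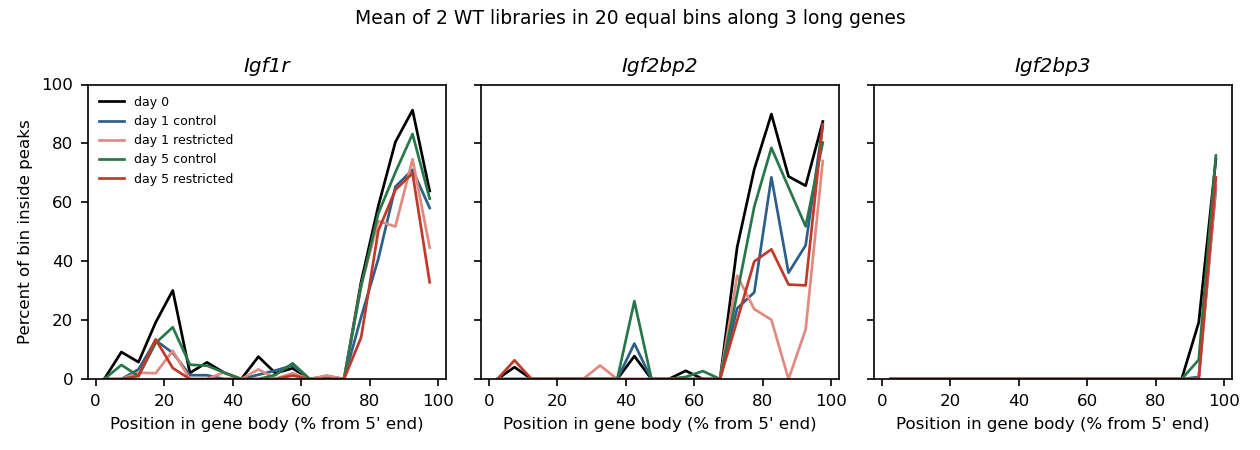
Percent of each of 20 equal bins inside peaks (y axis) by position from the 5′ end (x axis, percent of the gene body) for Igf1r, Igf2bp2 and Igf2bp3, as the mean of 2 WT libraries per condition. Cover is concentrated at the 3′ end in all 3 genes and in every condition, with a low second rise near the 5′ end of Igf1r.

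Setd2 KO libraries had little of this cover. WT exceeded KO over the 5 conditions by 55.5 points in Igfbp5, 41.8 in Igfbp2, 37.2 in Igf2r, 15.9 in Igf1r and 14.4 in Igf2bp2. Each had the smallest p that the 7776 exact two-sided permutations within conditions allow (p = 2.57e-04, adjusted p = 3.34e-04). The 10 KO libraries come from 2 lines that recur in every condition, while the permutations treat libraries as independent, so these p-values are too small and do not measure the spread between lines. All 5 tested genes were higher in WT, as were 96.8% of the 8859 genes with at least 5% mean cover over all 20 libraries (0.0677%, or 6 genes, were lower). The 5 genes had passed that filter mainly or wholly through their WT cover, so it largely set this direction and nothing is read from the count. Without the filter, 9903 genes were higher and 213 lower in WT. Restricted day 1 lists of the KO lines held 791 and 127 peaks, and without that condition the differences were 61.0, 45.2, 42.7, 16.4 and 15.8 points (exact permutation p = 0.00154 each, the smallest possible).

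With WT lists cut to 110 Mb, which the KO lists did not reach, the difference of Igf2r was 19.8 points (exact permutation, adjusted p = 0.00113). The KO lines were not alike. Igfbp5 kept 54.2% cover in KO line 1 at control day 1, 36.6% at control day 5 and 24.0% at restricted day 5, and was listed at 0 at day 0, at restricted day 1 and in all 5 libraries of KO line 2. These values were 62.9%, 43.1% and 52.1% of the WT mean of the same condition. Igfbp2 was at 0 in all 10 KO libraries. Igf2bp2 had 8.94% and 3.70% in KO line 1 at control and restricted day 5 and 0.434% in KO line 2 at control day 5. Igf2r did not exceed 1.44%, Igf1r 0.450% and Igf2bp3 1.16% in any KO library. Each condition has 1 library of each line, so differences between lines or media within KO have no replicate check.

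Igfbp3 went the other way in KO line 1. Its cover was 3.36% at day 0, 10.1% at control day 1, 0 at restricted day 1, 14.1% at control day 5 and 16.8% at restricted day 5, above both WT libraries in 4 of 5 conditions, which held for 1.25% of the 19300 genes. Igfbp3 was at 0 in 9 of the 10 WT libraries, so nearly any peak met this rule, unlike in genes with high WT cover. Pappa2, from a gene list used below, was at 0 in all WT libraries. Its KO line 1 cover was 0.641%, 2.22%, 0.152%, 12.1% and 30.8% in the same order of conditions. In KO line 2 Igfbp3 was listed at 0 throughout. Over both lines and without the filter on low cover, WT minus KO was -4.15 points (exact permutation p = 0.125, adjusted p = 0.151). The line 1 peaks were short, the longest stretch being 1.18 kb.

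Downstream of the receptors, 33 of 41 insulin and IGF signalling genes had enough cover to test. Restriction lowered 16 and raised 1 on day 1 (36% and 2.38% of all tested genes), with a median of -12.3 points against -7.99 over all tested genes. On day 5 it lowered 22 and raised 0 (41.5% and 4.32% of all tested genes), with a median of -17.3 against -9.15. With centring the counts turned to 9 higher and 4 lower on day 1 and 6 higher and 4 lower on day 5, and equal covered length gave 5 and 7, and 4 and 8, of 30 tested. Irs1, the docking protein of the insulin and IGF1 receptors, fell by 45.7 points on day 1 (SE 5.91, limma adjusted p = 6.26e-04) and by 48.0 points on day 5. Its libraries measured 64.5% and 75.2% against 25.7% and 22.7% on day 1, and 70.3% and 57.3% against 12.7% and 19% on day 5. Eif4ebp1, the translation repressor controlled by mTORC1, fell by 41.4 points on day 1 and by 50 points on day 5. Pik3r2, a regulatory subunit of PI3-kinase, fell by 52.1 points on day 1 and the MAP kinase gene Mapk3 by 33.8 points. With centring the day 1 differences were -18.7 points for Mapk3 and -26.2 points for Eif4ebp1, and the day 5 difference of Eif4ebp1 was -33.3 points. Equal covered length took the day 5 difference of Irs1 to -30.8 points.

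Over time in control medium, 0 signalling genes rose and 2 fell from day 0 to day 1 (0.967% and 5.65% of all genes, median -3.85 points against -5.30 over all genes). These were Pik3cb, a catalytic PI3-kinase subunit, by 24.1 points, and Eif4ebp1 by 20.2 points. From day 1 to day 5 9 rose and 0 fell (17.1% and 5.95% of all genes, median 11.7 against 3.89), or 2 and 1 with centring, and from day 0 to day 5 9 rose and 3 fell (12.2% and 15.6% of all genes, 3.24 against -1.17), among the latter Irs1 by 23.5 points (adjusted p = 0.0184), which was -43.0 points with equal covered length and -49.6 points with peaks of a −log10 q no lower than 3. Against day 0, 0 had risen and 15 had fallen by restricted day 5 (4.05% and 43.5% of all genes, -9.97 against -9.84), led by Irs1 at -71.5 points and Eif4ebp1 at -56.7 points, but 14 rose and 3 fell with centring, which took Eif4ebp1 to -37.7 points. The restriction effect changed between the days in 1 of the 33 genes, the adaptor Grb2, by -16.2 points (adjusted p = 0.0258), where 3.58% of all tested genes changed in that direction and 1.62% in the other. Without a library, day 0 to day 1 calls of Pik3cb and Eif4ebp1 were lost for either control day 1 replicate (adjusted p 0.0561 to 0.0915). With equal covered length Pik3cb was at -2.86 points (0.442) and Eif4ebp1 at -15.5 points (0.122), centring took Eif4ebp1 to -11.8 points (0.147), a −log10 q of at least 3 to -18.3 points (0.101) and joining of peaks within 1 kb to -21.5 points (0.0612), and fitting only the groups compared ended both calls (0.142 each). The call of Irs1 from day 0 to day 5 was lost without day 0 replicate 1 (0.0800) or control day 5 replicate 2 (0.123), with only the groups compared (0.0615) and with peaks joined (0.0593). The Grb2 call was lost without any one of 7 libraries (0.0559 to 0.108), those being all of day 1, day 5 control replicate 1 and both of restricted day 5. It was also lost with peaks joined (0.0615) and with limma's trend and robust settings off (0.0599), and stood just inside the threshold with centring (-14.7 points).

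Of 21 other IGF binding, release and regulation genes, 18 were in the table and 8 could be tested. Restriction lowered 5 on day 1 and 4 on day 5 and raised 0, where 36% and 41.5% of all tested genes fell (medians -14.6 and -11.9 points against -7.99 and -9.15). With centring 1 rose and 1 fell on day 1, and 2 rose and 2 fell on day 5. Equal covered length gave 0 higher and 2 lower on day 1, and 0 higher and 3 lower on day 5, of 6 tested. Between day 0 and day 1, 2 fell and 0 rose (5.65% and 0.967% of all tested genes, median -9.60 against -5.30). From day 1 to day 5, 2 rose and 2 fell (17.1% and 5.95% of all tested genes, 0.0111 against 3.89). Over the whole course to control day 5, 1 rose and 3 fell (12.2% and 15.6% of all tested genes, -12.2 against -1.17). By restricted day 5, 7 fell and 0 rose (43.5% and 4.05% of all tested genes, -32.1 against -9.84). The last count was 4 lower and 2 higher with centring, and 5 lower and 1 higher of 6 tested with equal covered length. Hmga2, a chromatin protein that activates Igf2bp2 transcription, measured 97.9% and 98.6% at day 0, 64.9% and 76.7% at control day 1, and 23.3% and 17.7% at control day 5. It fell by 77.7 points from day 0 to day 5 (SE 4.72, limma adjusted p = 9.14e-06). Stc2, an inhibitor of the IGFBP-cleaving protease PAPP-A, fell by 39.0 points over the same time (adjusted p = 5.07e-04), from 51.4% and 35.1% to 2.76% and 5.73%. Stat5b, which carries growth hormone signals to Igf1, rose by 33.8 points (adjusted p = 9.91e-05), from 14.9% and 17.6% to 53.5% and 46.6%. Myc fell by 41.8 points under restriction on day 5 (adjusted p = 0.00144), from 58.7% and 42.1% to 0 and 17.2%, and by 25.1 points with centring. In control medium it also fell by 40.1 points from day 0 to day 1 (adjusted p = 0.0138) and rose by 30.4 points from day 1 to day 5 (0.0130). Equal covered length ended both calls (0.0709 and 0.0926), as did leaving out either control day 1 replicate (0.0817 and 0.0741, and 0.0720 and 0.0561). The rise was also lost without control day 5 replicate 1 (22.0 points, 0.0982) and with the stricter peaks (0.0559), and the fall with only the groups compared (0.135).

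Genes with the closest cover over the 10 WT libraries were found by the smallest root mean square difference. For Igfbp5 they were Tnfaip2, Des and St6galnac4, at 3.42, 3.54 and 3.56 points. For Igf2r they were Pald1, Mxd4 and Svil, at 7.39, 8.26 and 8.29 points. For Igfbp2 they were Syt13, Bcat1 and Ube2c, at 9.64, 12.2 and 12.9 points. Des, the muscle intermediate filament gene, went from 86.5% ± 3.69 at day 0 to 86.8% ± 2.91 at control day 5 and 43.3% ± 0.973 at restricted day 5 (SD, n = 2), beside 84.5% ± 1.45, 84.9% ± 0.560 and 46.1% ± 4.15 for Igfbp5. These distances are descriptions, and all points come from the same 10 peak lists.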

How the data were processed

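H3K36me3 ChIP-seq of C2C12 cells was deposited as 1 broad-peak list per library, 20 in all, on GRCm38 per the submitters' processing notes. Per the labels' protocols, Drosophila chromatin was added as a spike-in. Whether it entered the lists, the peak caller, control and filters are not given in the sources used here. Each peak carries the authors' score, the authors' fold enrichment (a ratio) and the authors' −log10 p and −log10 q values. Of these, fold served to describe peaks and −log10 values to filter lists. The input sample was not used here. Peak names call the KO libraries replicates of 1 group, whereas the labels call them 2 lines, which was followed.

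Peaks were merged per library, and cover was computed for the 19300 protein-coding genes of at least 2 kb in RefSeq (GRCm38.p6), with pandas 2.3.3 and NumPy 2.4.6 in Python 3.11.15. WT conditions were compared with limma 3.58.1 in R 4.3.3 (trend and robust settings), with Benjamini-Hochberg adjustment over the 9512 genes whose cover averaged 5% or more. WT and KO were compared by exact permutation within conditions over 8859 genes. On simulated data with 200 genes changed by 30 points, limma recovered 74.5% for restriction at day 1 and 19% for the difference between restriction effects. No 2 lists were identical. Promoters, matched by symbol, are RefSeq sequences.

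Alternatives were a −log10 q of at least 3, lists of equal covered length (110 Mb), peaks within 1 kb joined, shared bases left out, other filters, centring, other fits, a replicate block and leaving out libraries. The members and lists were chosen with earlier results of these data known. Named list genes were, per comparison, up to 4 called genes, largest difference first, with no overlap between the groups' libraries (for the difference of effects, without that condition), of which 1 is not reported here, and likeness was given for members whose WT means span at least 30 points. Same-numbered libraries deviated together with correlations of -0.439 to 0.0616, so the numbers were not treated as pairs.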

Additional observations from a re-analysis of the deposited data

Results flagged for a closer look

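The effect of methionine restriction on Igfbp2 differed between the days by a test of the difference itself: the day 5 effect minus the day 1 effect was 49.0 points (SE 7.05, limma adjusted p = 0.00633). Cover was lower in both restricted libraries than in both control libraries on day 1, by 50.2 points, and overlapped on day 5, where control cover was already 5.01% ± 4.35 (SD, n = 2). A fall on day 5 could not exceed that control cover, so a large difference of effects was set in advance. The test thus does not show that restriction acted less on day 5. No cause was tested.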

How the results depend on the processing

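Of 724 alternative values for the 5 tested genes, 678 stayed on their side of the threshold, 30 lost and 6 gained a call in the same direction, and 10 reversed. Of the 678, 26 changed sign between values neither of which was called. Centring each library on its median turned Igf1r to 14.5, 11.4 and 10.8 points (restriction on day 1, on day 5, and day 0 to restricted day 5), Igf2bp2 to 8.83, 10 and 9.97 points, and Igfbp2 to 15.5 points (restriction on day 5). The median tested gene itself then stood at 7.20 points (restriction on day 1), 7.53 points (day 5) and 9.22 points (day 0 to restricted day 5). Lists of equal covered length turned Igf2bp2 to 7.30 points (restriction on day 5) and Igf1r to 1.22 points (day 0 to restricted day 5), and a −log10 q of at least 3 turned Igf2bp2 to 1.63 points (restriction on day 5). Counts of called genes over all tested genes moved by over 1.5 times as follows. With a −log10 q of at least 3, restriction on day 5 called 2896 genes against 4355, and day 1 to day 5 1295 against 2194. Day 0 to day 1 called 239 genes with equal covered length, 333 with centring and 0 in limma when only the groups compared were fitted (1897 at an unadjusted p under 0.05), against 629. Day 0 to day 5 called 1617 with only the groups compared and 1751 at a mean cover of at least 20%, against 2641. That filter gave 188 against 495 for the difference of effects and 5413 against 8577 for WT over KO. Leaving out 1 library at a time gave 2354 to 3984 calls for restriction on day 1 (3648 with all), 2721 to 4660 on day 5 (4355), 142 to 986 for day 0 to day 1 (629), 1108 to 2692 for day 1 to day 5 (2194), 1759 to 2659 for day 0 to day 5 (2641) and 212 to 659 for the difference of effects (495). With the replicate block, restriction called 3436 genes on day 1 and 4175 on day 5, the block ended the call of Igf2bp2 under restriction on day 5 (adjusted p = 0.0666), and it changed no other call among the 5 tested genes. Gene and condition pairs with both WT libraries at 50% cover or more numbered 6, against 10 at 25% and 5 at 75%. Without sequencing depth, how small a change these lists can show is unknown.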
